A study of Mus musculus with 18 samples.

Results

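The genes of glycolysis and of the response to low oxygen were followed in 18 RNA sequencing libraries of mouse cells. The set held 37 genes, chosen by name for what they are known to do, with earlier results of these data known, and all 37 were among the 15288 genes of the deposited table. It comprised 4 glucose and lactate transporters, 9 enzymes of the upper glycolytic steps, 7 enzymes of the lower steps with lactate dehydrogenase, 4 regulators of glycolytic flux, 3 genes of oxygen sensing and 10 other genes of the hypoxia response. All 37 passed the filter of a mean of at least 1 CPM (reads of a gene scaled to a fixed library total), so that no member was lost to low expression. According to the sample labels they were pulmonary microvascular endothelial cells, which line the small vessels of the lung, whereas the title of the study speaks of pulmonary vascular smooth muscle cells. Every culture was grown in an endothelial growth medium in 60 mm dishes and was transfected with 5 ul of a 10 uM stock of small interfering RNA (siRNA), either scrambled or directed against CYP1B1, a cytochrome P450 that hydroxylates estradiol. After a further 24 hours the cells received 1 uM E2 (estradiol), 1 uM 16aOHE or vehicle for 24 hours in 5% serum. 16aOHE is the usual abbreviation of 16-alpha-hydroxyestrone, a metabolite that differs from estradiol by a ketone where estradiol has a hydroxyl, and by a further hydroxyl group on the neighbouring carbon. This gave 6 groups of 3 libraries: scrambled vehicle, scrambled E2, scrambled 16aOHE, siCYP1B1 vehicle, siCYP1B1 E2 and siCYP1B1 16aOHE. All groups carried an siRNA, and the sources used here do not give the strain or age of the mice.

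Glycolysis splits glucose into pyruvate, which is reduced to lactate or enters the mitochondria. When oxygen falls, prolyl hydroxylases no longer mark the alpha subunit of hypoxia-inducible factor (HIF) for destruction, and the factor raises glucose transporters, most glycolytic enzymes, lactate dehydrogenase, pyruvate dehydrogenase kinases and genes of mitochondrial clearance. In vascular cells of the lung these genes are studied because pulmonary hypertension has been linked to a shift from oxidative metabolism towards glycolysis. The factor is controlled mainly at the level of the protein, which RNA sequencing does not measure.

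The depth, estimated from the smallest steps between values, was 14.1 reads per CPM in siCYP1B1 16aOHE library 1, 38.5 in scrambled 16aOHE library 2 and 20.9 to 28.8 in the other 16 libraries. The 10 most abundant genes held 2.38% to 2.84% of the reads in each library. The labels do not state separate cultures or animals for the 3 libraries of a group, so a p-value here reflects the spread among these libraries, which could be technical. With 3 libraries against 3, an exact permutation test of a single gene cannot give a p below 0.1, so genes were tested with limma on log2(CPM + 1) across 11835 genes, and a gene was called at a Benjamini-Hochberg adjusted p under 0.05 over all of them. Log2 changes on this scale understate the change of genes near 1 CPM. The targeted gene, Cyp1b1, measured 89.1, 91.4 and 96.1 CPM in the scrambled vehicle libraries and 80.8, 82.2 and 81.3 CPM in the siCYP1B1 vehicle libraries. Averaged over the 3 estrogen arms it was lower with siCYP1B1 by a small amount, with a log2 difference of -0.20 (SE 0.0199, adjusted p = 5.83e-08), so that the siRNA comparisons below set cells with slightly less Cyp1b1 RNA against controls. The defining endothelial markers Pecam1 and Vwf averaged 0.0482 and 0.0306 CPM and stood at 0 in 8 and 12 of the 18 libraries, while Col3a1, a collagen of fibroblasts, averaged 2488 CPM and Msln, a mesothelial surface protein, 1521 CPM. Of the fibroblast and pericyte list, Col1a1 and Dcn averaged 1946 and 309 CPM, but Cspg4, Rgs5 and Lum 0.217, 0.0611 and 0.0428. Pdgfrb and Pdgfra averaged 11.05 and 3.31 CPM. Beside Msln, Upk3b, Krt19 and Wt1 averaged 825, 434 and 256 CPM, and Krt18, Cdh1 and Epcam 3.87, 3.09 and 0.343. Of 15 endothelial genes listed, 10 were in the deposited table. Cd34, Flt1, Esam and Eng were measured in every library, with means of 107, 70.03, 18.9 and 7.76 CPM. Kdr, Egfl7, Tek and Plvap averaged 4.37, 1.14, 0.824 and 0.145 CPM. Of 9 smooth muscle genes listed, 8 were in the deposited table. Smtn, Acta2 and Tagln averaged 90.1, 20.5 and 2.66 CPM. Des, Myl9, Cnn1, Myh11 and Lmod1 averaged 0.727, 0.219, 0.106, 0.0765 and 0.0668 CPM. In these bulk libraries, fewer cells of a type and less RNA per cell cannot be told apart.

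Levels were compared between members per kilobase of exon (CPM per kb, mean ± SD over the 18 libraries). The most abundant members were enzymes of the middle and end of the pathway, but not all of these enzymes were abundant. Pgk1 averaged 49.1 ± 2.78 CPM per kb, below the upper enzyme Gpi1 at 76.3 ± 5.70. Gapdh and Eno1, given below, averaged less than Pgk1. Levels of members that share transcript sequence with other genes, also given below, are uncertain. The aldolase Aldoa, which cleaves fructose bisphosphate, averaged 467 ± 34.96 CPM per kb, the pyruvate kinase Pkm 422 ± 29.5, the lactate dehydrogenase subunit Ldha 314 ± 22.2 and the triosephosphate isomerase Tpi1 223 ± 14.5. The ranges over libraries of Aldoa and Pkm overlapped, and those of Ldha and Tpi1 lay below both and apart from each other. Of the transporters, the lactate carrier Slc16a1 stood at 57.6 ± 3.98 and the glucose carrier Slc2a1 at 29.3 ± 4.72, with the glucose carrier Slc2a3 at 4.49 ± 0.735 and the lactate exporter Slc16a3 at 0.655 ± 0.172 CPM per kb. Hk1 (51.7 ± 5.14) exceeded Hk2 (18.7 ± 1.99) among the hexokinases, which phosphorylate glucose. The 3 phosphofructokinase genes Pfkp (31.8 ± 3.90), Pfkl (25.2 ± 3.33) and Pfkm (23.3 ± 1.95) lay close together, and the range of Pfkl over libraries overlapped with those of both others, while every Pfkp value (26.96 CPM per kb or more) lay above every Pfkm value (26.79 or less). Hif1a, the oxygen-regulated HIF subunit, averaged 49.4 ± 1.80 and its main hydroxylase Egln1 24.3 ± 2.29, with the inducible hydroxylase Egln3 at 6.41 ± 1.41 CPM per kb.

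Some members share much of their transcript with other genes, and their values are uncertain where reads could be assigned to a copy. Of the 50-base stretches of the longest coding transcript, 82.5% in Gapdh, 72.2% in Eno1, 68.0% in Pgk1, 41.5% in Pgam1 and 34.4% in Pkm also occur in another annotated gene. Smaller shares were found for Bnip3l (23.4%), Bnip3 (21.9%), Gpi1 (19.3%), Ldha (16.6%) and Aldoa (13.5%), and 7.51% or less for the other members. Gapdh, the glyceraldehyde phosphate dehydrogenase, averaged only 20.03 ± 4.90 CPM per kb, and the enolase Eno1 1.64 ± 0.232, while the row of Eno1b, which shares 70.5% of the stretches of Eno1, held 637, 680.4 and 656 CPM in the scrambled vehicle libraries. Over the 18 libraries Hif1a varied least, with a coefficient of variation of 3.64%, and Bnip3 most (36.6%), followed by Pdk1 (30.3%). Within groups the same measure was 2.13%, 8.11% and 4.79%. Fewer than 100 estimated reads were reached in at least 1 library by 6 members, among them Aldoc (23.0 at the lowest), Ankrd37 (25.0), Slc16a3 (30.0) and Bnip3, the member with the strongest response to E2 (80 at the lowest), whose values carry the most counting error.

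The members lie on 16 chromosomes, with 6 on chromosome 6, where Slc2a3, Eno2, Tpi1 and Gapdh follow each other between positions 122727809 and 125166467 (mm10). HIF binds DNA at ACGTG or GCGTG, and these letters were searched on both strands in RefSeq promoter windows of 300 bases on GRCm38.p6, from 250 bases before to 50 after each start. Windows were found for 34 members (51 windows). ACGTG was present in 54.9% of the member windows and in 24.2% of all windows of genes in the deposited table, GCGTG in 52.9% and 48.1%, and either in 76.5% and 59.3%. The member windows were slightly richer in G and C, with a median of 63.3% against 60.0%. Of the 34 members, 30 (88.2%) had a match in at least 1 window, against 64.7% of the 11767 genes of the deposited table with a window. The 4 members without were Gpi1, Tpi1, Eno2 and Gbe1. A match is a description of these letters and not evidence of binding, and CACGTG reads as ACGTG on both strands and counts as 2 matches that overlap. The windows of 4 members that carry different parts of the results are shown with matches in capitals: Bnip3 (chr7:138909457-138909756, minus strand) and Pdk1 (chr2:71872974-71873273, plus strand), the members raised most by E2, Pfkp (chr13:6648722-6649021, minus strand), raised by siCYP1B1, and Ldha (chr7:46845554-46845853, plus strand), which holds the most matches of all members. Each is written 5′ to 3′ along the gene.
Bnip3: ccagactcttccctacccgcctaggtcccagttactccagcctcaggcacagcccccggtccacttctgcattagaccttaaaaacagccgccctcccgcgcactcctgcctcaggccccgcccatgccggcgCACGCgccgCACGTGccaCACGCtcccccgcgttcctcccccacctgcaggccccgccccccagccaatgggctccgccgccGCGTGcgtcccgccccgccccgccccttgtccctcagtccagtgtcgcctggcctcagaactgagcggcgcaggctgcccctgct
Pdk1: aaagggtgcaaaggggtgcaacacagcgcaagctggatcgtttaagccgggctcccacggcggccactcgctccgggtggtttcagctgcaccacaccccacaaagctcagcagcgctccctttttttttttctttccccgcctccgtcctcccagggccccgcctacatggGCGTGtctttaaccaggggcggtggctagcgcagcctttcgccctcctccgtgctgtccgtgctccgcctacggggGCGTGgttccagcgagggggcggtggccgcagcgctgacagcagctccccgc
Pfkp: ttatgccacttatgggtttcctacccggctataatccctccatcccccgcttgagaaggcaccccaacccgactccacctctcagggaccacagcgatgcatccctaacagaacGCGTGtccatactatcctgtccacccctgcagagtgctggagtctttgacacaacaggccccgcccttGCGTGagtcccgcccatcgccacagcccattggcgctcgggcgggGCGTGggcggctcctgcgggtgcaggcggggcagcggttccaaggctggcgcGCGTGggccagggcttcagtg
Ldha: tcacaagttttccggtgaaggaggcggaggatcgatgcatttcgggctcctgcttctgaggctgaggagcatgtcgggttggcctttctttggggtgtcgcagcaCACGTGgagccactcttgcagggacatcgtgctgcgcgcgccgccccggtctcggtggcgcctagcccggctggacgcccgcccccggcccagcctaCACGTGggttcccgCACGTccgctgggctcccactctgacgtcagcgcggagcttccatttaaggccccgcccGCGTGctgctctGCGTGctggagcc
Bnip3 held 5 matches, Pdk1 2, Pfkp 4 and Ldha 7. Pdk1 and Pfkp held GCGTG alone in these windows, whereas Bnip3 held 2 ACGTG matches that form 1 CACGTG.

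E2 against vehicle asked what estradiol changed in these cells. In scrambled cells 14 of the 37 members rose and 3 fell, with a median log2 change of 0.11. Over all tested genes 18.6% were called higher and 11.4% lower, with a median of 0.03, so the members' share of higher calls lay above the background and their share of lower calls near it. With siCYP1B1, 17 members rose and 3 fell (median 0.10), against 16.7% and 10.8% of all genes. The members that rose were mitochondrial and stress-related hypoxia genes, upper glycolytic enzymes, flux regulators, Slc2a1, Hif1a and Egln1, and none of the 7 lower glycolytic genes was called in scrambled cells. The direction of calls over all genes depended on the scaling: 62.0% of all calls in scrambled cells were higher as deposited and 45.3% after median-of-ratios scaling, under which 11 members rose and 4 fell. With siCYP1B1 these shares were 60.6% and 44.4%, and 13 members rose and 4 fell. Averaged over the siRNAs 20 members rose and 5 fell (median 0.09), against 27.9% and 16.3% of all genes. The share of all calls that were higher moved from 63.1% to 47.4% after median-of-ratios scaling (16 members higher and 5 lower). The shares of all tested genes called are given for the values as deposited only. The members' counts after median-of-ratios scaling therefore have no background beside them.

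The strongest response was in Bnip3 (chr7:138890836-138909506, minus strand, mm10), a mitochondrial outer membrane protein that marks mitochondria for removal. It measured 3.98, 4.59 and 3.98 CPM in scrambled vehicle, 7.85, 8.35 and 9.51 CPM in scrambled E2 and 4.48, 5.12 and 4.28 CPM in scrambled 16aOHE libraries. With siCYP1B1 it measured 3.96, 4.62 and 4.67 CPM in vehicle, 9.83, 9.11 and 9.86 CPM in E2 and 5.69, 5.05 and 5.41 CPM in 16aOHE. All 6 E2 libraries were above all other libraries. The log2 change with E2 was 0.88 (SE 0.0986, adjusted p = 1.06e-06) in scrambled and 0.97 (SE 0.0986, adjusted p = 3.11e-07) in siCYP1B1 cells. Pdk1 (chr2:71873224-71903858, plus strand) is a kinase that inhibits pyruvate dehydrogenase and so holds pyruvate back from oxidation in the mitochondria. It measured 12.03, 12.2 and 10.7 CPM in vehicle and 20.7, 21.2 and 21.8 CPM in E2 with scrambled siRNA. With siCYP1B1 it measured 14.3, 14.2 and 11.6 CPM in vehicle and 23.8, 24.4 and 24.1 CPM in E2. The groups did not overlap in either siRNA, and the log2 changes were 0.82 (SE 0.0748, adjusted p = 8.08e-08) and 0.81 (SE 0.0748, adjusted p = 8.23e-08). Ndrg1 (chr15:66929318-66969641, minus strand), a stress-induced gene long used as a marker of hypoxia, measured 26.8, 25.9 and 28.9 CPM in vehicle and 41.3, 38.4 and 40.3 CPM in E2 with scrambled siRNA. The values were 27.7, 28.04 and 25.5 CPM in vehicle and 40.7, 40.04 and 37.2 CPM in E2 with siCYP1B1. It rose by a log2 change of 0.54 (SE 0.0655, adjusted p = 2.88e-06) and 0.52 (SE 0.0655, adjusted p = 5.22e-06), again without overlap. Ero1l, an oxidase of the endoplasmic reticulum now named Ero1a, lay at 204 to 211 CPM in vehicle and 291 to 304 CPM in E2 with scrambled siRNA, a log2 change of 0.52 (adjusted p = 1.63e-09), and at 241 to 267 CPM and 375 to 396 CPM with siCYP1B1, a log2 change of 0.58 (adjusted p = 4.27e-10). Ddit4, an inhibitor of mTORC1 signalling, rose by 0.18 and 0.17. Of the 10 other hypoxia response genes, 4 rose in scrambled and 5 in siCYP1B1 cells, the fifth being the histone demethylase Kdm3a (0.19, adjusted p = 0.031), a call lost in 8 of 26 alternative settings (adjusted p from 0.0536 to 0.125). Bnip3l, Ankrd37, Mxi1, Higd1a and Gbe1 were not called with E2 in either siRNA.

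**Figure D1:**
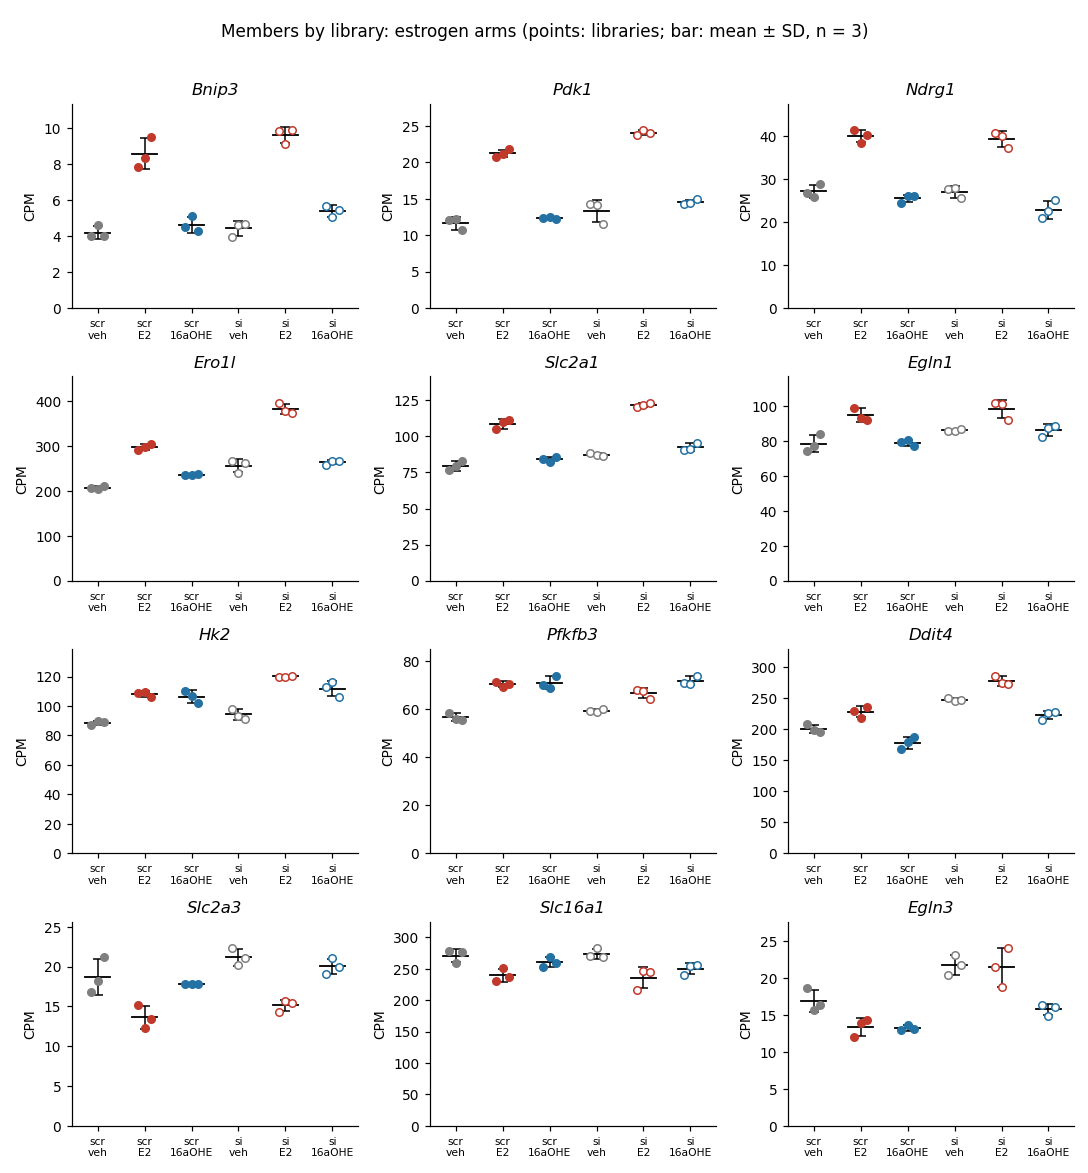
Level of 12 members in each library, in CPM on axes that start at 0, for the 6 groups (scr, scrambled siRNA; si, siCYP1B1; veh, vehicle). Points are libraries, filled for scrambled and open for siCYP1B1, and bars give the mean ± SD of 3. In the Bnip3 and Pdk1 panels the 6 E2 libraries lie above all others, whereas in the Hk2 and Pfkfb3 panels both estrogens lie above vehicle.

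Among the transporters, E2 moved the glucose carriers in opposite directions. Slc2a1 (chr4:119108745-119137329, plus strand), the basal glucose carrier of most cells, measured 76.4, 79.4 and 82.9 CPM in vehicle and 105, 109.8 and 111 CPM in E2 with scrambled siRNA. The values were 88.6, 86.8 and 86.4 CPM in vehicle and 120.4, 121 and 123 CPM in E2 with siCYP1B1. It rose by 0.45 (SE 0.0378, adjusted p = 2.72e-08) and 0.48 (SE 0.0378, adjusted p = 1.08e-08) on the log2 scale, and E2 libraries lay above vehicle libraries in both siRNAs. Slc2a3 (chr6:122727809-122742745, minus strand), the high-affinity glucose carrier, measured 16.8, 18.3 and 21.2 CPM in vehicle and 15.2, 12.3 and 13.4 CPM in E2 with scrambled siRNA. The values were 22.3, 20.2 and 21.1 CPM in vehicle and 14.4, 15.7 and 15.4 CPM in E2 with siCYP1B1. The E2 libraries lay below the vehicle libraries in both siRNAs, with log2 changes of -0.43 (SE 0.0821, adjusted p = 0.000469) and -0.46 (SE 0.0821, adjusted p = 0.000299). Slc16a1 (chr3:104638664-104658462, plus strand), which carries lactate and pyruvate, measured 277, 259 and 276 CPM in vehicle and 229.7, 251 and 237 CPM in E2 with scrambled siRNA. The values were 270.0, 283 and 269 CPM in vehicle and 216, 246 and 245 CPM in E2 with siCYP1B1. Its fall was smaller, -0.18 (SE 0.0473, adjusted p = 0.00691) and -0.22 (SE 0.0473, adjusted p = 0.00169). Slc16a3, the hypoxia-induced lactate exporter, was called higher with E2 in siCYP1B1 cells, at 2.14, 2.47 and 1.37 CPM in vehicle and 4.08, 3.45 and 3.75 CPM in E2 (0.68, adjusted p = 0.00688), but not without siCYP1B1 vehicle library 3 (log2 0.52, adjusted p = 0.0525), and not in scrambled cells (0.17, adjusted p = 0.528).

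Of the 9 upper glycolytic enzymes, 5 rose with E2 in each siRNA. Hk2, the inducible hexokinase, measured 87.4, 89.96 and 88.8 CPM in vehicle and 109, 109.8 and 106 CPM in E2 with scrambled siRNA. The values were 98.3, 93.2 and 91.4 CPM in vehicle and 120.0, 119.8 and 121 CPM in E2 with siCYP1B1. It rose by 0.28 (SE 0.0403, adjusted p = 2.26e-05) and 0.35 (SE 0.0403, adjusted p = 1.85e-06), with no overlap of the groups. The liver-type phosphofructokinase Pfkl lay at 83.04 to 87.3 CPM in vehicle and 103 to 116 CPM in E2 in scrambled cells and rose by 0.36 (adjusted p = 1.97e-05) and 0.36 (adjusted p = 1.98e-05). The muscle-type Pfkm rose by 0.23 (adjusted p = 0.000767) and 0.23 (adjusted p = 0.00095), while the platelet-type Pfkp changed by 0.02 and 0.04 and was not called. Aldoa rose by 0.11 and 0.12, calls that were lost under median-of-ratios scaling (adjusted p = 0.162 and 0.0952) and without scrambled vehicle library 3 (0.0567), scrambled E2 library 1 (0.0884) or siCYP1B1 vehicle library 1 (0.0618). Tpi1 in scrambled cells (0.12, adjusted p = 0.0455) lost its call in 14 of 26 alternative settings (adjusted p from 0.0508 to 0.25). Hk1 in siCYP1B1 cells (0.10, adjusted p = 0.026) lost its call with median-of-ratios scaling or without siCYP1B1 vehicle library 1 or 3 or siCYP1B1 E2 library 1, 2 or 3 (adjusted p from 0.0502 to 0.19). Among the 7 lower genes no change was called in scrambled cells. Ldha (chr7:46845804-46855627, plus strand) measured 572, 597 and 579 CPM in vehicle and 547, 526 and 581 CPM in E2, and the groups overlapped (-0.08, 95% interval -0.16 to 0.00, adjusted p = 0.139). With siCYP1B1 the values of Ldha were 635, 666 and 670.0 CPM in vehicle and 599.6, 637 and 625 CPM in E2 (-0.08, 95% interval -0.17 to 0.00, adjusted p = 0.137). Within one siRNA, the neuronal enolase Eno2 was the 1 lower gene called, in siCYP1B1 cells, at 9.20, 6.20 and 8.42 CPM in vehicle and 15.1, 11.5 and 10.9 CPM in E2 (0.60, adjusted p = 0.0144), and this was lost without siCYP1B1 vehicle library 2 (adjusted p = 0.0944) or siCYP1B1 E2 library 1 (0.0854). In scrambled cells Eno2 measured 12.3, 9.69 and 8.09 CPM in vehicle and 14.3, 14.3 and 11.5 CPM in E2 (0.39, adjusted p = 0.0984). Averaged over the siRNAs, Eno2 (0.50, adjusted p = 0.00269) and Pkm (0.07, adjusted p = 0.0387) were called higher with E2 and Ldha lower (-0.08, adjusted p = 0.024). The averaged call of Pkm was lost in 11 of 26 alternative settings (adjusted p from 0.0546 to 0.412), and that of Ldha with quantile normalization, without a variance trend or without scrambled vehicle library 2, scrambled E2 library 2, siCYP1B1 vehicle library 2 or 3 or siCYP1B1 E2 library 1 (adjusted p from 0.0521 to 0.189).

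Of the flux regulators, Pfkfb3, which makes the activator of phosphofructokinase, measured 58.4, 56.03 and 55.5 CPM in vehicle and 71.5, 69.2 and 70.5 CPM in E2 with scrambled siRNA. The values were 59.2, 58.7 and 59.9 CPM in vehicle and 67.96, 67.6 and 64.2 CPM in E2 with siCYP1B1. It rose by 0.31 (SE 0.0405, adjusted p = 7.93e-06) and 0.17 (SE 0.0405, adjusted p = 0.00424) without overlap of the groups. Pfkfb4 was not called in either, at 4.36, 4.59 and 4.48 CPM in scrambled vehicle and 4.82, 5.86 and 4.84 CPM in scrambled E2. Pdk3, another pyruvate dehydrogenase kinase, was called lower in siCYP1B1 cells (-0.16, adjusted p = 0.0261), a call lost without siCYP1B1 vehicle library 3 or without either of the siCYP1B1 E2 libraries 1 and 3 (adjusted p up to 0.102). Among the oxygen-sensing genes, Hif1a (chr12:73901324-73947554, plus strand) measured 263, 256 and 258 CPM in vehicle and 271, 291 and 277 CPM in E2 with scrambled siRNA. The values were 260.2, 259 and 259 CPM in vehicle and 275, 277 and 285 CPM in E2 with siCYP1B1. Its log2 change was small, 0.11 (SE 0.0313, adjusted p = 0.0105) and 0.11 (SE 0.0313, adjusted p = 0.0158). Both calls of Hif1a were lost under median-of-ratios scaling (adjusted p = 0.115 and 0.141), the former also without scrambled E2 library 2 (0.0723) and the latter without siCYP1B1 E2 library 3 (0.0756). Egln1, the main HIF prolyl hydroxylase, rose by 0.27 (adjusted p = 0.000258) and 0.19 (adjusted p = 0.00601). Egln3 (chr12:54178981-54203874, minus strand), the hydroxylase most inducible by hypoxia, moved the other way in scrambled cells, from 18.6, 15.7 and 16.4 CPM in vehicle to 11.97, 13.97 and 14.3 CPM in E2. With siCYP1B1 it measured 20.4, 23.1 and 21.8 CPM in vehicle and 21.5, 18.7 and 24.02 CPM in E2, and these groups overlapped. The log2 change of Egln3 was -0.31 (SE 0.0878, adjusted p = 0.00995) in scrambled and -0.03 (SE 0.0878, adjusted p = 0.848) in siCYP1B1 cells. The former was lost without scrambled vehicle library 1 (adjusted p = 0.0596) or scrambled E2 library 1 (0.0650), and the difference between the siRNAs was not called (0.29, adjusted p = 0.998).

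Markers of several cell types, among them those named by the labels and the title, moved in the same comparison. The summed level of the 8 fibroblast and pericyte markers ran from 6046 to 6369 CPM in scrambled vehicle and from 3972 to 4438 CPM in scrambled E2, and from 4850 to 5125 and 3208 to 3316 CPM with siCYP1B1. That of the 7 epithelial and mesothelial markers was 3667 to 3749.9 CPM in vehicle and 2871 to 3057 CPM in E2 with scrambled siRNA, and 2860.1 to 3005 CPM and 2374 to 2447 CPM with siCYP1B1. The 10 endothelial markers in the table summed to 267 to 306 CPM in scrambled vehicle and 218 to 227 CPM in scrambled E2, and the 8 smooth muscle markers to 133 to 138 and 102 to 121 CPM. Not every marker moved with its sum. Most of the fibroblast sum was Col1a1, Col3a1 and Dcn, which fell with E2 in scrambled cells (log2 -0.35, -0.73 and -0.42), whereas Pdgfrb rose (0.33, adjusted p = 0.024) and Pdgfra was at 0.33 (adjusted p = 0.0673). With siCYP1B1 Pdgfrb and Pdgfra were at 0.06 and -0.05 with E2 and were not called. Upk3b (-0.66 and -0.74) and Krt19 (-0.66 and -0.56) fell with E2 in both siRNAs, whereas Msln was at -0.06 (adjusted p = 0.419) in scrambled cells and within 0.01 of 0 in siCYP1B1 cells (adjusted p = 0.99). The part of these shifts in the members' changes was not tested.

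Fewer members were called with 16aOHE than with E2 at the same dose and time. In scrambled cells 3 rose and 2 fell, against 1.76% and 2.08% of all genes, and in siCYP1B1 cells 2 rose and 4 fell, against 2.53% and 2.86%. These counts are small, and each is a larger share of the members than that of all genes. The members' medians were -0.06 in siCYP1B1 cells and within 0.01 of 0 in scrambled cells. Averaged over the siRNAs 4 rose and 5 fell, against 5.33% and 5.97% of all genes. Without scrambled 16aOHE library 2, the deepest, 4 members in place of 5 were called in scrambled cells, and without siCYP1B1 16aOHE library 1, the shallowest, 4 in place of 6 in siCYP1B1 cells. These comparisons used the same vehicle libraries as those of E2. The genes that rose in both siRNAs, Pfkfb3 and Hk2, act at early steps of glycolysis. Pfkfb3 measured 70.1, 68.7 and 73.9 CPM in 16aOHE with scrambled and 70.9, 70.5 and 73.9 CPM with siCYP1B1, above every vehicle library, and rose by 0.32 (SE 0.0405, adjusted p = 3.88e-05) and 0.27 (SE 0.0405, adjusted p = 0.000302). Hk2 measured 110.2, 107 and 102 CPM with scrambled and 113, 116 and 106 CPM with siCYP1B1, also above the vehicle libraries of its siRNA, and rose by 0.26 (SE 0.0403, adjusted p = 0.000417) and 0.24 (SE 0.0403, adjusted p = 0.000759). Ero1l was called higher in scrambled cells (0.19, adjusted p = 0.00277) and was at 0.04 (adjusted p = 0.604) with siCYP1B1.

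The members that fell with 16aOHE within an siRNA were hypoxia response genes. Egln3 measured 12.9, 13.7 and 13.1 CPM in 16aOHE with scrambled and 16.3, 14.9 and 16.1 CPM with siCYP1B1, below the vehicle libraries of the same siRNA. Its log2 change was -0.33 (SE 0.0878, adjusted p = 0.0374) and -0.44 (SE 0.0878, adjusted p = 0.00391). The call in scrambled cells was lost with no filter, without a variance trend or without scrambled vehicle library 1 or 3 or scrambled 16aOHE library 1, 2 or 3 (adjusted p from 0.0522 to 0.197). Ddit4 (chr10:59949675-59951770, minus strand) measured 209, 199 and 195 CPM in vehicle and 168, 179.7 and 187 CPM in 16aOHE with scrambled siRNA. The values were 251, 246 and 247 CPM in vehicle and 215, 226 and 228 CPM in 16aOHE with siCYP1B1. It changed by -0.17 (SE 0.0403, adjusted p = 0.0148) and -0.15 (SE 0.0403, adjusted p = 0.0288), the opposite of its direction with E2, at 230.2, 219 and 236 CPM with scrambled and 287, 275 and 273 CPM with siCYP1B1. The call of Ddit4 in scrambled cells was lost without scrambled vehicle library 1 (adjusted p = 0.0950) or scrambled 16aOHE library 1 (0.115). In siCYP1B1 cells it was lost without a variance trend or without siCYP1B1 vehicle library 1, 2 or 3 or siCYP1B1 16aOHE library 1 or 2 (adjusted p from 0.0625 to 0.0889). In siCYP1B1 cells Ndrg1 (-0.24, adjusted p = 0.0336) and Mxi1, an antagonist of Myc (-0.21, adjusted p = 0.023), were also called lower. The call of Ndrg1 was lost with quantile normalization, with only the groups compared or without siCYP1B1 vehicle library 1 or 2 or siCYP1B1 16aOHE library 1 or 2 (adjusted p from 0.0662 to 0.133). The call of Mxi1 was lost with only the groups compared or without siCYP1B1 vehicle library 2 or 3 or siCYP1B1 16aOHE library 2 (adjusted p from 0.0568 to 0.123). The values of Ndrg1 were 24.5, 26.04 and 26.00 CPM in scrambled 16aOHE and 20.9, 22.5 and 25.1 CPM in siCYP1B1 16aOHE. Aldoc, the brain-type aldolase, was at 2.25, 1.90 and 2.56 CPM in scrambled vehicle and 1.80, 1.59 and 1.92 CPM in scrambled 16aOHE (-0.22, adjusted p = 0.548), and was not called. Gapdh was not called with either estrogen, at 24.4, 24.2 and 26.05 CPM in scrambled vehicle, 30.5, 15.6 and 27.2 CPM in scrambled E2 and 30.7, 25.9 and 32.4 CPM in scrambled 16aOHE. In siCYP1B1 cells, whose libraries are given with the siRNA comparison, every 16aOHE library was below every vehicle library for Gapdh (-0.57, adjusted p = 0.0545). Slc2a1 (84.5, 82.5 and 85.7 CPM), Pdk1 (12.4, 12.4 and 12.2 CPM), Ldha (537, 553 and 573 CPM), Hif1a (269, 276 and 265 CPM), Slc2a3 (17.9, 17.8 and 17.8 CPM) and Slc16a1 (253, 268 and 259 CPM) were not called in scrambled 16aOHE libraries. With siCYP1B1 the corresponding 16aOHE values were 90.6, 91.5 and 95.5 CPM for Slc2a1, 14.3, 14.5 and 14.9 for Pdk1, 580.0, 621 and 623 for Ldha, 264, 269.6 and 272 for Hif1a, 19.1, 21.03 and 19.98 for Slc2a3 and 239.6, 255 and 255 for Slc16a1, and these were not called either. Averaged over the siRNAs, Slc2a1 was called higher (0.08, adjusted p = 0.0495) and Ldha lower (-0.09, adjusted p = 0.0379) with 16aOHE. The former was lost in 19 of 26 alternative settings (adjusted p from 0.0505 to 0.141), and the latter in 10 of 26 alternative settings (adjusted p from 0.0511 to 0.0994). The fibroblast and pericyte markers summed to 5353 to 5720.4 CPM in scrambled 16aOHE and 4248 to 4466 CPM in siCYP1B1 16aOHE, below vehicle and above E2, and their part in these values was not tested.

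**Figure D2:**
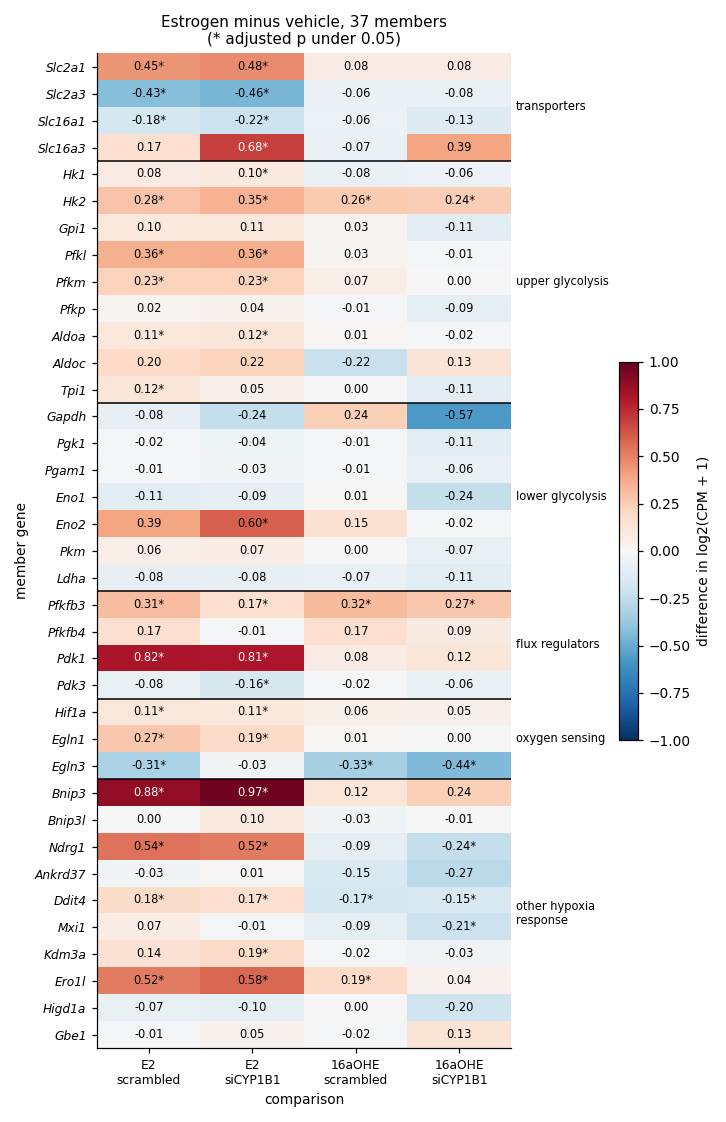
Difference in log2(CPM + 1) between each estrogen and vehicle for the 37 members, in rows grouped by role, in scrambled and siCYP1B1 cells. Red is higher and blue lower than vehicle, and an asterisk marks an adjusted p under 0.05. The E2 columns hold 17 and 20 asterisks and the 16aOHE columns 5 and 6.

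The compounds differ in structure at the ketone and the further hydroxyl group named above, and were compared directly as 1 pair in each siRNA. Most called members were lower with 16aOHE than with E2. In scrambled cells 12 members were lower and 1 was higher, against 11.6% and 6.78% of all genes. In siCYP1B1 cells 19 were lower and 1 higher, against 11.8% and 6.59%. The members' median differences were -0.07 and -0.16, and those of all genes -0.03 and -0.04. After median-of-ratios scaling the share of all calls that were higher moved from 36.8% to 55.7% in scrambled and from 35.9% to 59.3% in siCYP1B1 cells, and the members' calls were 2 higher and 10 lower, and 2 higher and 14 lower. Averaged over the siRNAs 2 members were higher and 19 lower (median -0.14), against 11.9% and 22.5% of all genes, and that share moved from 34.6% to 55.0% (4 members higher and 17 lower). Here too the shares of all tested genes called are for the values as deposited, with none beside the counts after scaling.

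The largest differences among the called members were in Bnip3, Pdk1 and Ndrg1. Bnip3 differed by -0.77 (95% interval -0.97 to -0.56, adjusted p = 1.7e-05) in scrambled and -0.73 (95% interval -0.94 to -0.53, adjusted p = 2.26e-05) in siCYP1B1 cells. Pdk1 differed by -0.74 (95% interval -0.89 to -0.58, adjusted p = 1.37e-06) and -0.69 (95% interval -0.85 to -0.53, adjusted p = 1.74e-06), and Ndrg1 by -0.63 (95% interval -0.77 to -0.49, adjusted p = 1.51e-06) and -0.76 (95% interval -0.90 to -0.63, adjusted p = 8.22e-08). In all 3 the E2 and 16aOHE libraries did not overlap. Slc2a1, Pfkl, Egln1, Ddit4 and Ero1l were also lower with 16aOHE in both siRNAs, by log2 differences of -0.36, -0.33, -0.26, -0.36 and -0.33 in scrambled and -0.39, -0.37, -0.19, -0.32 and -0.54 in siCYP1B1 cells. Smaller differences in both were called for Pfkm (-0.17 and -0.23), Hk1 (-0.15 and -0.16), Aldoa (-0.10 and -0.14) and Mxi1 (-0.16 and -0.21). The call of Pfkm in scrambled cells was lost without scrambled E2 library 2 (adjusted p = 0.0882) or scrambled 16aOHE library 3 (0.0595). Aldoa lost its call in scrambled cells in 14 of 26 alternative settings (adjusted p from 0.0522 to 0.227), and Mxi1 in 17 of 26 alternative settings (adjusted p from 0.0513 to 0.197). In siCYP1B1 cells the call of Egln1 was lost with median-of-ratios scaling or without siCYP1B1 E2 library 1 or 2 (adjusted p from 0.0503 to 0.0547). Mxi1 lost it with quantile normalization or without siCYP1B1 16aOHE library 2 (adjusted p from 0.0614 to 0.0923), and Aldoa with median-of-ratios scaling (adjusted p = 0.0578). The 1 member called higher with 16aOHE in each siRNA was Slc2a3, by 0.37 (95% interval 0.20 to 0.54, adjusted p = 0.00342) and 0.38 (95% interval 0.21 to 0.55, adjusted p = 0.00264). Averaged over the siRNAs Slc16a1 was also higher (0.10, adjusted p = 0.0204), a call lost without scrambled E2 library 1, scrambled 16aOHE library 2 or siCYP1B1 E2 library 1 (adjusted p from 0.0551 to 0.0697). In siCYP1B1 cells, where more members were called, Egln3 (-0.41, adjusted p = 0.00224), Eno2 (-0.61, adjusted p = 0.0179), Gpi1 (-0.22, adjusted p = 0.000739), Kdm3a (-0.22, adjusted p = 0.019), Tpi1 (-0.16, adjusted p = 0.0161), Pkm (-0.15, adjusted p = 0.00807) and Pfkp (-0.12, adjusted p = 0.0259) were also lower with 16aOHE. Of these, Eno2 was lost without siCYP1B1 E2 library 1 (0.104) or siCYP1B1 16aOHE library 2 (0.123), and Pkm with median-of-ratios scaling (adjusted p = 0.0643). Tpi1 was lost with median-of-ratios scaling or without siCYP1B1 E2 library 3 or siCYP1B1 16aOHE library 1 or 2 (adjusted p from 0.0514 to 0.0789). Kdm3a was lost with quantile normalization or without siCYP1B1 E2 library 1 or siCYP1B1 16aOHE library 2 or 3 (adjusted p from 0.0553 to 0.116). Pfkp was lost with median-of-ratios scaling, with only the groups compared or without siCYP1B1 E2 library 2 or 3 or siCYP1B1 16aOHE library 2 (adjusted p from 0.0501 to 0.179).

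For other members a difference between the estrogens was not shown. Hk2 differed by -0.02 (95% interval -0.11 to 0.06, adjusted p = 0.733) in scrambled and -0.10 (95% interval -0.19 to -0.02, adjusted p = 0.0758) in siCYP1B1 cells. Pfkfb3 differed by 0.01 (95% interval -0.07 to 0.09, adjusted p = 0.901) and 0.11 (95% interval 0.02 to 0.19, adjusted p = 0.0714), Ldha by 0.01 (95% interval -0.07 to 0.09, adjusted p = 0.918) and -0.03 (95% interval -0.11 to 0.05, adjusted p = 0.648), and Hif1a by -0.05 (95% interval -0.12 to 0.01, adjusted p = 0.286) and -0.06 (95% interval -0.12 to 0.01, adjusted p = 0.231). Egln3 differed by -0.01 (95% interval -0.20 to 0.17, adjusted p = 0.936) in scrambled cells. For Hk2, Pfkfb3, Ldha and Hif1a these intervals hold no difference beyond 0.19 in either direction. The intervals of Gapdh, 0.32 (95% interval -0.04 to 0.67, adjusted p = 0.214) and -0.34 (95% interval -0.69 to 0.02, adjusted p = 0.184), leave room for larger differences.

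**Figure D3:**
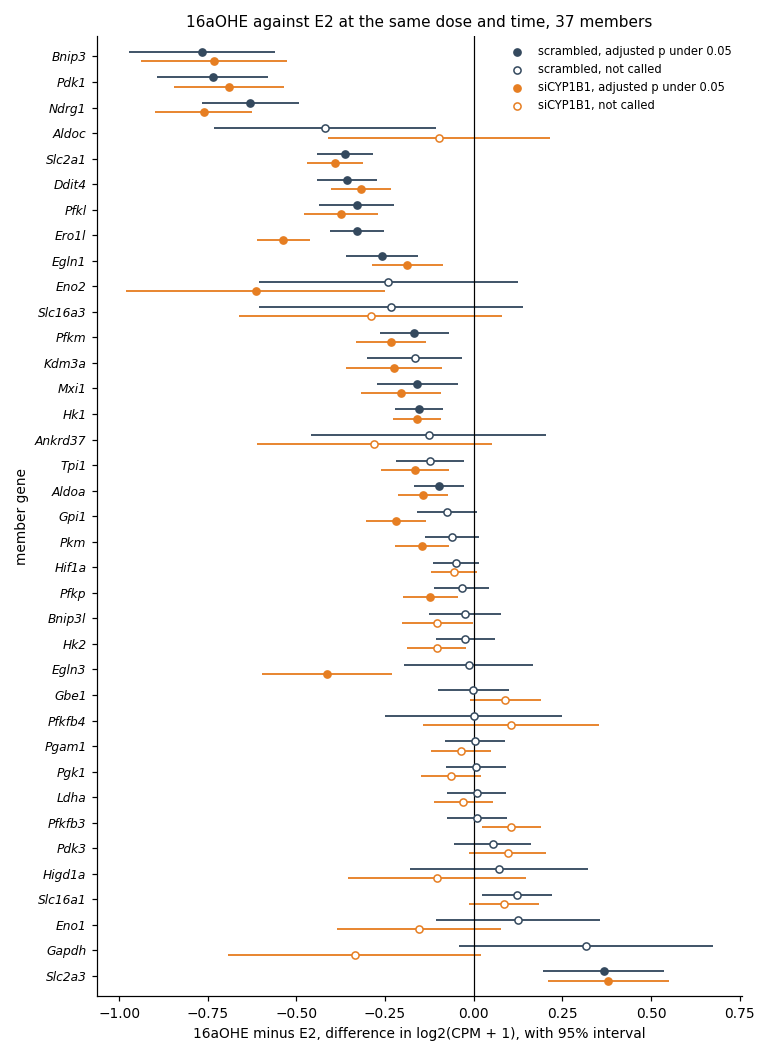
Difference in log2(CPM + 1) of 16aOHE minus E2 for each of the 37 members, with its 95% interval, in scrambled (dark) and siCYP1B1 (orange) cells, ordered by the difference in scrambled cells. Filled points have an adjusted p under 0.05. Bnip3, Pdk1 and Ndrg1 lie furthest to the left, at -0.77, -0.74 and -0.63 in scrambled cells, and Slc2a3 lies furthest to the right of the called members, at 0.37.

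siCYP1B1 against scrambled asked what the siRNA changed. Here most enzymes of the pathway rose by small amounts, together with the stress genes Ddit4 and Ero1l and the hydroxylase Egln3. In vehicle 14 members rose and 1 fell, with a median log2 change of 0.13, against 11.5% and 9.12% of all genes. In E2, 13 rose and 1 fell (median 0.14), against 11.4% and 9.8%, and in 16aOHE 8 rose and 1 fell (median 0.03), against 10.4% and 9.31%. The count in 16aOHE was 5 without scrambled 16aOHE library 2 and 10 without siCYP1B1 16aOHE library 1. Averaged over the 3 arms 19 rose and 4 fell (median 0.10), against 26.5% and 18.2%. By role, 6 of 9 upper enzymes, 6 of 7 lower enzymes, 2 of 4 transporters, 1 of 4 flux regulators, 2 of 3 oxygen-sensing genes and 2 of 10 other hypoxia genes were called higher on average. After median-of-ratios scaling 18 members rose and 4 fell on average, and the share of all calls that were higher moved from 59.3% to 48.6%. In vehicle that share moved from 55.7% to 40.0% (11 members higher and 2 lower), and in E2 from 53.7% to 40.2% (11 higher and 1 lower). For these rescaled counts no share of all tested genes called is given.

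Pfkp (chr13:6579874-6648771, minus strand), the platelet-type phosphofructokinase, measured 119, 116 and 128 CPM in scrambled vehicle, 127, 120.3 and 121 CPM in scrambled E2 and 120.0, 122 and 118 CPM in scrambled 16aOHE. With siCYP1B1 it measured 152, 157 and 153 CPM in vehicle, 154, 158 and 161 CPM in E2 and 145, 142 and 147 CPM in 16aOHE. Every siCYP1B1 library was above every scrambled library, and the averaged log2 change was 0.33 (SE 0.0214, adjusted p = 1.23e-10). Hk1, the constitutive hexokinase, lay at 214 to 249 CPM in the 9 scrambled libraries and at 252 to 290.2 CPM in the 9 siCYP1B1 libraries (0.24, adjusted p = 2.47e-09), also without overlap. Ldha was at 0.17, 0.17 and 0.13 in vehicle, E2 and 16aOHE, called in each, and 0.16 (SE 0.0231, adjusted p = 1.08e-05) on average. The call of Ldha in 16aOHE was lost with median-of-ratios scaling, without a variance trend, with only the groups compared or without scrambled 16aOHE library 1 or 2 or siCYP1B1 16aOHE library 2 or 3 (adjusted p from 0.0552 to 0.109). Aldoa (0.16, adjusted p = 8.3e-07), Pkm (0.15, adjusted p = 5.49e-06), Gpi1 (0.12, adjusted p = 0.000221), which isomerises glucose phosphate, Pgk1 (0.12, adjusted p = 0.000195), Pgam1 (0.10, adjusted p = 0.00106) and Hk2 (0.10, adjusted p = 0.00116) rose by similar small amounts on average. Tpi1 (0.08, adjusted p = 0.022) lost its call with median-of-ratios scaling, without a variance trend or without scrambled vehicle library 3, scrambled E2 library 2, siCYP1B1 vehicle library 2 or siCYP1B1 16aOHE library 3 (adjusted p from 0.0506 to 0.0981). Slc2a1 rose by 0.14 (adjusted p = 1.98e-05) and Slc2a3 by 0.16 (adjusted p = 0.00978).

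Gapdh measured 49.8, 35.6 and 35.5 CPM in siCYP1B1 vehicle, 36.9, 30.9 and 33.3 CPM in siCYP1B1 E2 and 26.7, 21.96 and 31.5 CPM in siCYP1B1 16aOHE. Its log2 change was 0.66 (SE 0.172, adjusted p = 0.00952) in vehicle, 0.50 (SE 0.172, adjusted p = 0.0422) in E2 and -0.15 (SE 0.172, adjusted p = 0.583) in 16aOHE, and 0.33 (adjusted p = 0.00905) on average. The vehicle call was lost without siCYP1B1 vehicle library 1 (adjusted p = 0.0634) and the E2 call in 10 of 26 alternative settings (adjusted p from 0.05 to 0.302). Without scrambled E2 library 2, which was at 15.6 CPM, the log2 change in E2 was 0.22 in place of 0.50. The Gapdh row rests on a transcript that is largely shared with other genes, so its value is uncertain. Eno1 (0.20, adjusted p = 0.0145) rose on average from a low level, and the Eno1b row, at a far higher level, changed by 0.27 (adjusted p = 1.51e-09). The aldolase and enolase isoenzymes best known from neurons, both at low levels, were called lower on average. Aldoc was at 1.23, 1.40 and 1.60 CPM in siCYP1B1 vehicle, 1.45, 1.69 and 2.36 CPM in siCYP1B1 E2 and 2.06, 1.08 and 1.83 CPM in siCYP1B1 16aOHE. The scrambled values were 2.25, 1.90 and 2.56 CPM in vehicle, 2.85, 2.57 and 2.698 CPM in E2 and 1.80, 1.59 and 1.92 CPM in 16aOHE. It changed by -0.30 (SE 0.0871, adjusted p = 0.00788) on average, and in 16aOHE the groups overlapped. Eno2 measured 10.6, 5.75 and 7.56 CPM in siCYP1B1 16aOHE and 12.5, 9.43 and 11.6 CPM in scrambled 16aOHE, and its averaged change was -0.29 (SE 0.101, adjusted p = 0.026), a call that was lost without a variance trend or without scrambled vehicle library 1, scrambled 16aOHE library 1, siCYP1B1 vehicle library 2, siCYP1B1 E2 library 3 or siCYP1B1 16aOHE library 2 (adjusted p from 0.0517 to 0.0649). Pfkfb4, at 4.48, 4.20 and 4.16 CPM in siCYP1B1 vehicle, 5.26, 3.60 and 3.97 CPM in siCYP1B1 E2, 4.69, 4.53 and 4.66 CPM in siCYP1B1 16aOHE and 4.65, 4.70 and 6.24 CPM in scrambled 16aOHE, was not called (-0.14, adjusted p = 0.108).

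**Figure D4:**
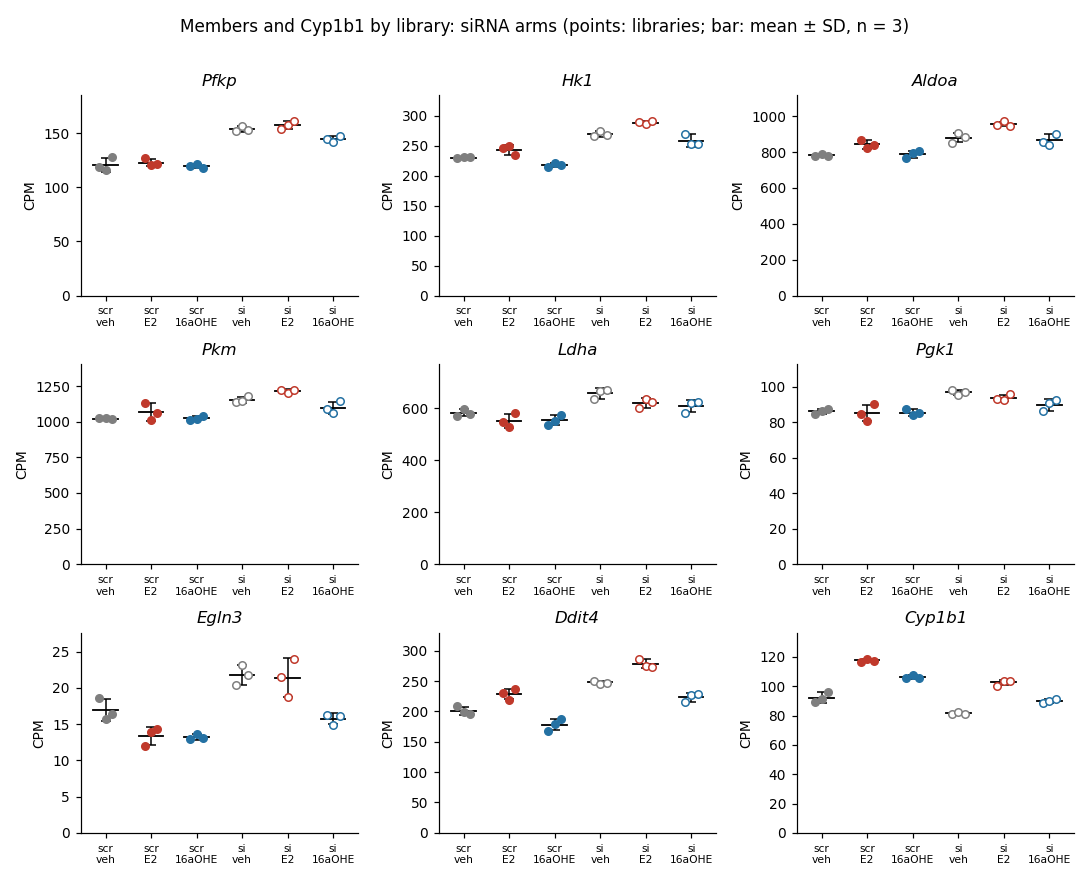
Level of 8 members and of Cyp1b1 in each library, in CPM on axes that start at 0, for the 6 groups (scr, scrambled siRNA; si, siCYP1B1; veh, vehicle). Points are libraries, filled for scrambled and open for siCYP1B1, and bars give the mean ± SD of 3. In the Pfkp and Hk1 panels all 9 siCYP1B1 libraries lie above all 9 scrambled libraries.

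Egln3, Ddit4 and Ero1l, all genes induced by low oxygen or stress, rose by larger amounts than most of the enzymes. Egln3 rose by 0.35 (SE 0.0878, adjusted p = 0.00744) in vehicle and 0.64 (SE 0.0878, adjusted p = 2.12e-05) in E2, and was at 0.24 (SE 0.0878, adjusted p = 0.0647) in 16aOHE, where it was not called. The averaged change of Egln3 was 0.41 (adjusted p = 1.53e-06). Ddit4 rose by 0.30, 0.28 and 0.32 in vehicle, E2 and 16aOHE (0.30, adjusted p = 1.46e-09 on average), and Ero1l by 0.31, 0.36 and 0.16 (0.28, adjusted p = 1.2e-09). These calls of Ddit4 and Ero1l held under every alternative. Egln1 (0.10, adjusted p = 0.00541) and Pdk1 (0.19, adjusted p = 0.00109) rose on average. Bnip3l, a relative of Bnip3, and Pdk3 were called lower (-0.13, adjusted p = 0.000736, and -0.11, adjusted p = 0.0052). Bnip3 (0.13, adjusted p = 0.0635), Ndrg1 (-0.06, adjusted p = 0.187), Pfkfb3 (adjusted p = 0.984), Slc16a1 (-0.02, adjusted p = 0.539) and Hif1a (adjusted p = 0.939) were not called. For Hif1a the 95% interval of the averaged change ran from -0.04 to 0.04.

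**Figure D5:**
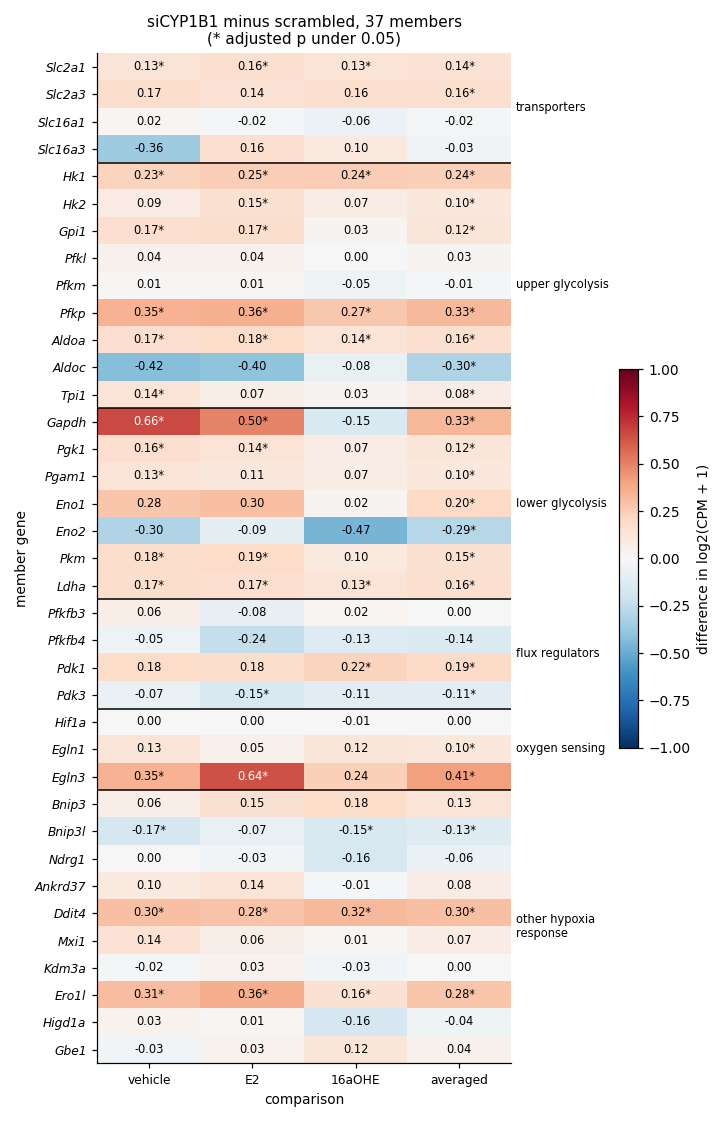
Difference in log2(CPM + 1) of siCYP1B1 minus scrambled for the 37 members, in rows grouped by role, in vehicle, E2, 16aOHE and averaged over the 3. Red is higher and blue lower with siCYP1B1, and an asterisk marks an adjusted p under 0.05. The averaged column holds 23 asterisks, of which 19 are higher, 12 of them in the rows of the upper and lower glycolytic enzymes.

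The same comparison moved markers of several cell types. The summed fibroblast and pericyte markers were lower with siCYP1B1 in each arm (4850 to 5125 against 6046 to 6369 CPM in vehicle), as were the summed epithelial and mesothelial markers (2860.1 to 3005 against 3667 to 3749.9 CPM) and the summed endothelial markers (195 to 198 against 267 to 306 CPM). Averaged over the arms, Col3a1 (-0.45), Upk3b (-0.63) and Cd34 (-0.79) were called lower. Not every marker was: Pdgfrb (-0.13, adjusted p = 0.0855), Krt19 (-0.05, adjusted p = 0.274), Kdr (-0.06, adjusted p = 0.554) and Eng (-0.04, adjusted p = 0.633) were not called. The summed smooth muscle markers were lower in vehicle (109.9 to 118 against 133 to 138 CPM) and in 16aOHE (96.96 to 105.5 against 114.6 to 129.6 CPM). In E2 they overlapped (98.9 to 107 against 102 to 121 CPM). The leukocyte markers overlapped, at 34.8 to 37.02 against 34.4 to 38.4 CPM. Their part in the members' changes was not tested.

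Whether siCYP1B1 altered the response to an estrogen was tested as an interaction. None of the 37 members was called by limma for E2 or for 16aOHE, where 0% of all genes were called higher and 0% lower. At an unadjusted p under 0.05 there were 2 members for E2 and 4 for 16aOHE, beside 470 and 596 of all 11835 genes. The E2 responses of Bnip3, Pdk1, Ndrg1 and Slc2a1 differed between the siRNAs by 0.09 (95% interval -0.20 to 0.38, adjusted p = 0.998), less than 0.01 (95% interval -0.22 to 0.22, adjusted p = 0.998), -0.02 (95% interval -0.22 to 0.17, adjusted p = 0.998) and 0.03 (95% interval -0.08 to 0.14, adjusted p = 0.998). The E2 response of Pfkfb3 differed by -0.14 (95% interval -0.26 to -0.03, adjusted p = 0.998) and was not called either. For Gapdh the 16aOHE response differed between the siRNAs by -0.81 (95% interval -1.31 to -0.31, adjusted p = 0.704) and was not called.

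Other genes of the pathways, outside the 37, were counted in lists by role. Of 10 tested HIF subunits and regulators, 2 rose with E2 in scrambled cells and 3 rose and 1 fell in siCYP1B1 cells, against the 18.6% higher and 11.4% lower of all genes in scrambled and 16.7% and 10.8% in siCYP1B1 cells, so the count of 2 is near the background. Epas1, the HIF2 alpha subunit that is prominent in endothelium, rose by 0.74 (adjusted p = 8.28e-07) and 0.71 (adjusted p = 1.6e-06) with E2 and was at 0.12 (adjusted p = 0.559) and 0.08 (adjusted p = 0.637) with 16aOHE, and the difference between the estrogens was -0.62 (adjusted p = 1.86e-05) and -0.62 (adjusted p = 1.47e-05). Arnt, the shared HIF partner, rose with E2 by 0.17 and 0.13, and in siCYP1B1 cells Siah2, a ligase of the prolyl hydroxylases, rose by 0.28 (adjusted p = 0.0123) and Arnt2 fell (-0.23, adjusted p = 0.000651). Of 23 tested other hypoxia targets, 9 rose and 1 fell with E2 in scrambled cells, and 11 rose in siCYP1B1 cells, beside the same shares. Among them the adenylate kinase Ak4 (0.83, adjusted p = 0.00151, and 0.87, adjusted p = 0.00121) and the lipoprotein receptor Vldlr (0.81, adjusted p = 4.08e-06, and 0.72, adjusted p = 1.95e-05) rose in both siRNAs, and the collagen crosslinker Lox fell in scrambled cells (-0.50, adjusted p = 0.00059). With 16aOHE in scrambled cells, the carbonic anhydrase Car12 (0.23, adjusted p = 0.0142) and the collagen-modifying Plod1 (0.19, adjusted p = 0.0449) rose.

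With siCYP1B1, averaged over the arms, 3 of these 23 rose and 7 fell, against 26.5% and 18.2% of all genes. The transferrin receptor Tfrc rose (0.52, adjusted p = 2.56e-11), while Lox (-0.49, adjusted p = 5.7e-07) and the collagen-modifying Plod2 (-0.40, adjusted p = 5.69e-13) fell. Beside the same shares, of the HIF subunits and regulators 5 rose and none fell, led by Epas1 (0.21, adjusted p = 0.00122), Siah2 (0.14, adjusted p = 0.018) and Vhl, which targets HIF alpha for destruction (0.12, adjusted p = 0.00891). Of 12 genes for the entry of pyruvate into the mitochondria or its oxidation there, 7 rose and none fell. They were led by the pyruvate dehydrogenase component Dlat (0.42, adjusted p = 1.96e-10) and the pyruvate carrier subunits Mpc2 (0.21, adjusted p = 0.000875) and Mpc1 (0.12, adjusted p = 0.0339). With E2 in scrambled cells, where 18.6% of all genes rose and 11.4% fell, 3 of these 12 rose, Mpc1 (0.41, adjusted p = 0.000592), Dlat (0.22, adjusted p = 0.00231) and Pdhb (0.18, adjusted p = 0.0325), and Pdha1 fell (-0.14, adjusted p = 0.00385), while in siCYP1B1 cells (16.7% and 10.8%) Dlat rose (0.19, adjusted p = 0.00636) and Pdha1 fell (-0.17, adjusted p = 0.000655). Among 10 tested other isoenzymes, the muscle enolase Eno3 fell with E2 (-1.02, adjusted p = 5.09e-09, and -0.995, adjusted p = 6.35e-09) and by less with 16aOHE (-0.32, adjusted p = 0.0184, and -0.38, adjusted p = 0.00413), and the difference between the estrogens was called (0.70, adjusted p = 2.76e-06, and 0.61, adjusted p = 9.35e-06). In scrambled cells Hkdc1 also fell with E2 (-0.65, adjusted p = 0.00631) and the aldose mutarotase Galm rose (0.36, adjusted p = 0.00255).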

How the data were processed

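RNA of 18 libraries was sequenced. Per the submitters' processing notes TopHat2, Partek and the mouse build mm10 were used, and the sources used here name no versions or annotation. A single table of CPM values was deposited by the authors, with 15288 genes, each value with 0.0001 added. This was subtracted only to estimate the depth, and the tested and printed values keep it. The smallest steps between values gave whole reads, within 0.1 reads, for 93.4% to 94.4% of low values, so no count test was run. The sources used here do not say whether the libraries kept strand. Groups came from the sample labels, and library numbers within a group follow accession order and pair nothing.

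Values were tested as log2(CPM + 1) with limma 3.58.1 in R 4.3.3 (lmFit with 1 coefficient per group over all 18 libraries, eBayes with trend), for the genes whose mean reached 1 CPM, with Benjamini-Hochberg adjustment within each comparison. A gene was called at an adjusted p under 0.05, and intervals are at 95%. The procedure was tested on simulated data. The members and gene lists were chosen with earlier results of these data known. Values per library are given for Cyp1b1, Hif1a, Slc2a1, Ldha, Pdk1, the 3 members with the largest change in each direction with E2 and with 16aOHE in scrambled cells and with siCYP1B1 on average, and any member called in an interaction, with up to 3 called genes per other list. A few genes of those lists are not reported here. Values of other members were added after they were seen. Alternatives were other pseudocounts (0.1 and 4), no filter or a mean of 5 CPM, median-of-ratios scaling, quantile normalization, only the groups compared, no trend, and each library left out. Promoter windows are from RefSeq (GRCm38.p6), and sharing was counted over 50-base stretches of transcripts.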

Additional observations from a re-analysis of the deposited data

How the results depend on the processing

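No direction of a called value reversed under any alternative tried. Counts of members called stayed within 1.5 times in 384 of 390 recomputations, and 4832 of 5118 recomputed calls of single members held. The 390 include the interactions, in which no member was called in the main fit. Leaving out a library of a group outside a comparison cannot move the log2 changes of that comparison. Both totals therefore overstate how stable the calls are. Of the members called, those called under every alternative were 13 of 17 for E2 against vehicle in scrambled and 13 of 20 in siCYP1B1 cells, 3 of 5 and 3 of 6 for 16aOHE, 10 of 13 and 12 of 20 for 16aOHE against E2, 19 of 25, 6 of 9 and 17 of 21 for these 3 comparisons averaged over the siRNAs, and 10 of 15, 11 of 14, 5 of 9 and 21 of 23 for siCYP1B1 in vehicle, E2, 16aOHE and on average. With only the groups compared in the fit, 5 members in place of 9 were called for siCYP1B1 in 16aOHE. Leaving out 1 library gave 14 to 18 members called for E2 against vehicle in scrambled and 16 to 21 in siCYP1B1 cells, 3 to 5 and 3 to 7 for 16aOHE, 11 to 15 and 15 to 20 for 16aOHE against E2, 22 to 25, 6 to 9 and 20 to 22 for the 3 averaged, and 12 to 17, 11 to 16, 5 to 10 and 21 to 24 for siCYP1B1 in vehicle, E2, 16aOHE and on average. The 5 was without scrambled 16aOHE library 2. The lowest count for 16aOHE in scrambled cells was without scrambled vehicle library 1 or scrambled 16aOHE library 1, and in siCYP1B1 cells without siCYP1B1 vehicle library 2 or siCYP1B1 16aOHE library 2. The members' median for siCYP1B1 in E2 was 0.08 in place of 0.14 without scrambled E2 library 2. The cause was not tested. For the interaction of 16aOHE, 1 gene was called without a trend and 12 with only the groups compared, none of them a member. No paired analysis was possible because the labels carry no replicate numbers. Members under 100 estimated reads in a library (6 of 37) carry the most counting error.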

Other observations

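Genes of pathways that branch from glycolysis were counted in the same fits. The oxidative pentose phosphate enzyme G6pdx, which makes NADPH, rose with both estrogens, by 0.39 (adjusted p = 6.97e-07) with E2 and 0.40 (adjusted p = 3.29e-06) with 16aOHE in scrambled cells and by 0.30 (adjusted p = 2.16e-05) and 0.25 (adjusted p = 0.000982) in siCYP1B1 cells. The difference between the estrogens was not called for G6pdx (0.01, 95% interval -0.08 to 0.10, adjusted p = 0.916, and -0.05, 95% interval -0.14 to 0.04, adjusted p = 0.427). Of 7 tested genes of that pathway, 4 rose with E2 in scrambled cells and 2 in siCYP1B1 cells, against 18.6% and 16.7% of all genes, with Pgd at 0.17 (adjusted p = 0.000393) and 0.15 (adjusted p = 0.00179). With siCYP1B1, 4 of the 7 were called higher as a mean of the arms, against 26.5% of all genes, led by Pgls (0.23, adjusted p = 5.11e-07) and Tkt (0.15, adjusted p = 2.63e-06). Of 3 tested gluconeogenesis genes, Pck2 and Pcx rose with E2, by 0.39 (adjusted p = 8e-07) and 0.36 (adjusted p = 2.84e-05) in scrambled and 0.43 (adjusted p = 1.67e-07) and 0.34 (adjusted p = 4.72e-05) in siCYP1B1 cells, and both were lower with 16aOHE than with E2 (-0.38, adjusted p = 3.83e-06, and -0.36, adjusted p = 7.6e-05 in scrambled cells).

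Of 13 tested genes of glycogen metabolism, 6 rose and 2 fell with E2 in scrambled cells, and 5 rose and 3 fell in siCYP1B1 cells. Of all genes, 18.6% rose and 11.4% fell in scrambled and 16.7% and 10.8% in siCYP1B1 cells. The phosphorylase kinase subunit Phka1 fell (-0.27, adjusted p = 9.02e-05, and -0.30, adjusted p = 3.05e-05). With 16aOHE, Phka1 also fell (-0.19, adjusted p = 0.0143, and -0.18, adjusted p = 0.0151). With siCYP1B1, averaged over the arms, 4 of the 13 rose and 2 fell, against 26.5% and 18.2% of all genes, and Pgm1, a phosphoglucomutase, rose most (0.25, adjusted p = 7.6e-07). The adjusted p-values are from limma, and the lists were drawn up with earlier results of these data known.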
